A study of Mus musculus with 30 samples.

Results

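Cholesterol is made from acetyl-CoA by a chain of enzymes, and 7 of them were followed here across mouse brain tumors and normal mouse brain: Hmgcs1, Idi1, Fdps, Fdft1, Sqle, Lss and Cyp51. The group is named for synthesis and uptake, but all 7 encode enzymes of synthesis, and the genes of uptake are described after them. They were taken by symbol, each through 1 probe set with no second symbol, the brightest on average over all arrays, and are 7 of the 19938 genes measured. The RNA of 30 samples was hybridised to Affymetrix Mouse Gene 1.0 ST arrays, and every value is a log2 signal, so a difference of 1 on this scale stands for a doubling. The tumors followed injection of Cre recombinase under 1 of 3 promoters: GFAP, a promoter of astrocytes and neural stem cells; SYN1, a neuronal promoter; and NES (nestin), a promoter of neural progenitors. The arrays held 4 tumors from GFAP-CRE in the cortex, 7 from GFAP-CRE in the hippocampus, 4 from SYN1-CRE in the cortex, 4 from NES-CRE in the hippocampus and 3 from GFAP-CRE in the subventricular zone (SVZ), against 4 samples of normal cortex and 4 of normal hippocampus. The labels give the promoter and the site of injection, and neither the oncogenic cassette, the strain nor the age; no normal SVZ was analysed here. The labels do not tell whether the arrays of 1 group are separate animals, and the p-values therefore describe only the scatter of these samples, which can be technical.

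Hmgcs1 encodes the synthase that makes HMG-CoA, the precursor of mevalonate. Idi1 and Fdps turn the products of mevalonate into farnesyl diphosphate, and Fdft1 joins this into squalene, the first step that serves sterols alone. Sqle oxidises squalene, Lss closes it to lanosterol, and Cyp51 removes a methyl group from lanosterol on the way to cholesterol. The transcription factor encoded by Srebf2 is known to switch these genes on together when sterol is low, after Scap carries it out of the endoplasmic reticulum, where the Insig proteins hold it back. Brain cholesterol is made within the brain, in quantity by oligodendrocytes during myelination and by astrocytes afterwards.

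Promoters are shown because the 7 genes are known for shared control by sterol. The RefSeq promoter table (GRCm38.p6) held 4 of the 7 genes, each as 250 bases before to 50 after the start, 5′ to 3′ on the strand of the gene. Hmgcs1 lies at chr13:119690101-119690400 (+ strand), Idi1 at chr13:8885356-8885655 (+ strand), Lss at chr10:76531355-76531654 (+ strand) and Cyp51 at chr5:4104648-4104947 (- strand). Capitals mark, on either strand, the letters TCACNCCA, which resemble a sterol regulatory element, and CCAAT, the letters bound by NF-Y, which read ATTGG where they lie on the other strand.
Hmgcs1: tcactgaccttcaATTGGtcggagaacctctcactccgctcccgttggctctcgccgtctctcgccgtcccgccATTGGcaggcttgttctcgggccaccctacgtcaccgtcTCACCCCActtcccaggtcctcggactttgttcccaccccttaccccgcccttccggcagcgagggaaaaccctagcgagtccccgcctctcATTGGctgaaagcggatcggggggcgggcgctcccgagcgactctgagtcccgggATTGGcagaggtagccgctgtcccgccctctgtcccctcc
Idi1: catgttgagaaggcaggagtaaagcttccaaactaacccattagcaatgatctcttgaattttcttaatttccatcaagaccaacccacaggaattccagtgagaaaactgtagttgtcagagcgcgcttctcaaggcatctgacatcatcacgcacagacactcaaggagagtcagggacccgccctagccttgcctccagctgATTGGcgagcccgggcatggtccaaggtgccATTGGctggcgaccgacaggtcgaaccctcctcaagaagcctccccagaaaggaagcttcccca
Lss: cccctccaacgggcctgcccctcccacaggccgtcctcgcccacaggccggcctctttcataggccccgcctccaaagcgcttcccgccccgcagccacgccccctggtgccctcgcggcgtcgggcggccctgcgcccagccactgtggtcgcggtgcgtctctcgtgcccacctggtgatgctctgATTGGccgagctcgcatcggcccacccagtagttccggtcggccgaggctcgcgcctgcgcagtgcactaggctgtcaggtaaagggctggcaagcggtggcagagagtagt
Cyp51: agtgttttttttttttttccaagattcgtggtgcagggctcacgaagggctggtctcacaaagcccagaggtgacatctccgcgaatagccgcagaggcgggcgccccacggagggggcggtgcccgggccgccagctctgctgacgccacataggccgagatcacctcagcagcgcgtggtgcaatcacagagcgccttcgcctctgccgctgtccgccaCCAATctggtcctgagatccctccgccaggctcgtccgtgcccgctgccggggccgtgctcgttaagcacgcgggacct
The first motif matched once in the Hmgcs1 window, at bases 114 to 121, and not in the other 3 windows; 4.36% of all 32851 promoter windows hold it. CCAAT matched 4 times in Hmgcs1, 2 times in Idi1 and once each in Lss and Cyp51, against 37.4% of all windows with a match, and no match overlapped another. A match of letters describes the window and does not show a bound site. Other spellings of a sterol regulatory element were not searched, so a window without a match can still hold one. A link between these letters and the signal of the genes was not tested. The other genes are Fdps, Fdft1 and Sqle.

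Over the whole series, array medians ran from 7.03 to 7.30, and log2 signal includes background, so no gene reads 0. GFAP cortex tumor 1 and GFAP hippocampus tumors 5 to 7 stood apart from all other arrays on the second principal component, which held 14.2% of the variance, and the calls on the 7 genes in comparisons that use them are also given without them. Neuron markers fell in 10 of 12 genes in GFAP cortex tumors, 10 in GFAP hippocampus tumors, 10 in SYN1 cortex tumors, 0 in NES hippocampus tumors and 11 in SVZ tumors, by limma at adjusted p under 0.05. Cell cycle genes rose in 8 or 9 of 9 in every tumor group. Of all genes 27.8%, 41.4%, 38.7%, 8.56% and 37.6% passed in either direction, in the order of the groups just given.

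The 7 genes did not share 1 profile over the groups. Their means were lowest in GFAP cortex tumors for all 7 genes, while the group with the highest mean was normal cortex for Hmgcs1 and Fdft1, SYN1 cortex tumors for Fdps, Sqle and Cyp51, and GFAP hippocampus tumors for Idi1 and Lss. Between neighbours in the order of group means, the gap passed the larger SD of the pair in 2 of 6 steps for Hmgcs1, 1 of 6 for Fdft1 and none for the other 5 genes. The SD between arrays ran from 0.08 to 0.22 over the 7 genes in both normal tissues, against 0.22 to 0.81 in GFAP cortex tumors and 0.15 to 0.91 in SVZ tumors. Within groups, single arrays were high or low for the whole set: SVZ tumor 3 was the lowest of its group in 7 of 7 genes, and GFAP cortex tumor 4 and NES hippocampus tumor 3 were the highest of theirs in 7 of 7.

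**Figure D1:**
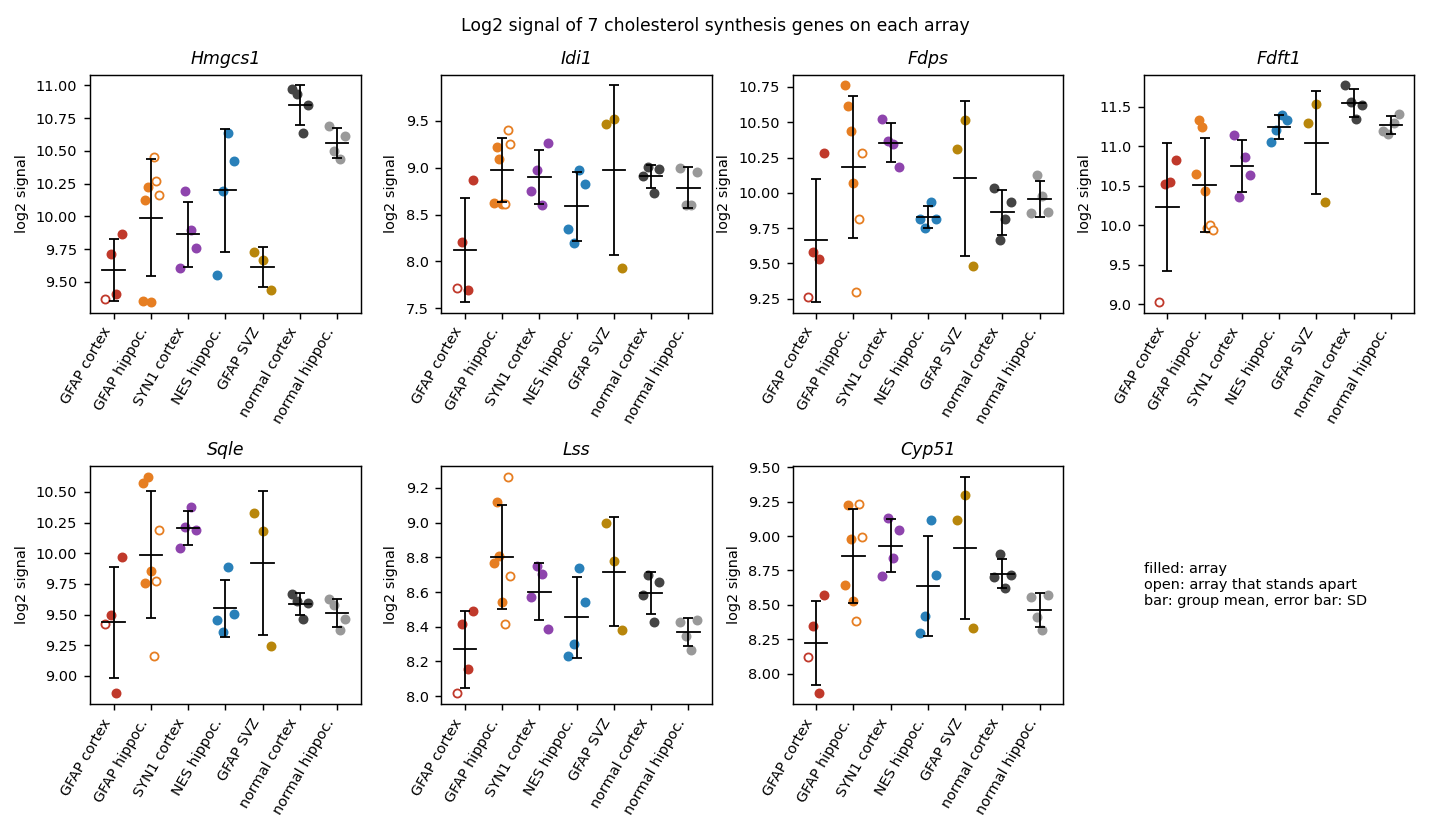
Log2 signal (y axis) of each of the 7 genes in 7 groups (x axis), 1 point per array, with group mean and SD; open points are the 4 arrays that stand apart. Hmgcs1 lies below all 8 normal arrays in 20 of 22 tumors, while Sqle lies above them in 14 of 22. How many of all genes do so was not counted.

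Hmgcs1 (chromosome 13, 119690351 to 119708260), the HMG-CoA synthase, was below all 8 normal arrays in 20 of 22 tumors and above them in none. The GFAP cortex tumors read 9.37, 9.71, 9.41 and 9.86, and the SYN1 cortex tumors 9.60, 10.19, 9.90 and 9.76, against 10.97, 10.93, 10.63 and 10.85 in normal cortex. Every array of both tumor groups lay below every normal cortex array. Groups did not overlap, in either direction, for 37.1% of all genes in the first of these comparisons and 49% in the second. How many of all genes lie outside all 8 normal arrays in so many tumors was not counted, here or for Fdft1 and Sqle. The SVZ tumors read 9.73, 9.67 and 9.44, also below all 8 normal arrays, whose lowest was 10.44. The GFAP hippocampus tumors ran from 9.35 through a median of 10.16 to 10.45, and the NES hippocampus tumors read 9.55, 10.19, 10.63 and 10.42, against 10.69, 10.50, 10.44 and 10.61 in normal hippocampus. Both hippocampal tumor groups overlapped normal hippocampus, by 1 array each.

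Idi1 (chromosome 13, 8885606 to 8892396), which isomerises isopentenyl diphosphate, and Fdps (chromosome 3, 89093588 to 89101967), which makes farnesyl diphosphate, had no such common shift. Idi1 read 7.72, 8.21, 7.69 and 8.87 in GFAP cortex tumors, against 8.91, 9.01, 8.74 and 8.98 in normal cortex. Tumor 4 lay within the normal range, and the other 3 lay below it. In SVZ tumors Idi1 read 9.47, 9.52 and 7.93, so SVZ tumor 3 was apart from the other 2. Idi1 has 2 probe sets, which correlated at 0.995 over the 30 arrays and differed by at most 0.10 on an array. Fdps read 10.52, 10.37, 10.34 and 10.19 in SYN1 cortex tumors, all above the normal cortex values of 10.04, 9.67, 9.81 and 9.93. In GFAP hippocampus tumors it ran from 9.30 through a median of 10.28 to 10.76, against 9.85, 10.13, 9.98 and 9.86 in normal hippocampus. Tumors 5 and 6 were the only ones of these 7 below the normal hippocampus arrays.

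Fdft1 (chromosome 14, 63145150 to 63181687), squalene synthase, was below all 8 normal arrays in 15 of 22 tumors and above them in none. It read 9.03, 10.52, 10.55 and 10.82 in GFAP cortex tumors and 11.14, 10.36, 10.86 and 10.64 in SYN1 cortex tumors, against 11.77, 11.56, 11.35 and 11.52 in normal cortex. No tumor of either group reached the normal cortex arrays, and GFAP cortex tumor 1, 1 of the 4 arrays that stand apart, was the lowest. The GFAP hippocampus tumors ran from 9.94 through a median of 10.43 to 11.33, against 11.20, 11.16, 11.30 and 11.42 in normal hippocampus. Tumors 5, 6 and 7, which stand apart, were the lowest 3 of the group, and tumors 2 and 3 lay within the normal range. In NES hippocampus tumors Fdft1 read 11.05, 11.21, 11.40 and 11.34, overlapping normal hippocampus. The 2 probe sets of Fdft1 correlated at 0.991.

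Sqle (chromosome 15, 59315092 to 59331193), squalene epoxidase, was above all 8 normal arrays in 14 of 22 tumors and below them in 4. The SYN1 cortex tumors read 10.04, 10.22, 10.38 and 10.19, above each of the normal cortex values of 9.67, 9.61, 9.46 and 9.60. GFAP cortex tumors read 9.42, 9.50, 8.86 and 9.97, on both sides of normal cortex. GFAP hippocampus tumors ran from 9.16 through a median of 9.86 to 10.62, against 9.63, 9.58, 9.38 and 9.46 in normal hippocampus, and only tumor 5 was below that range. The SVZ tumors read 10.33, 10.18 and 9.25, with SVZ tumor 3 again apart.

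Lss (chromosome 10, 76531565 to 76557139), lanosterol synthase, and Cyp51 (chromosome 5, 4080674 to 4104697), lanosterol demethylase, had group means that spanned less: 0.53 between the highest and lowest group for Lss and 0.71 for Cyp51, against 1.26 for Hmgcs1 and 1.32 for Fdft1. Lss ran from 8.41 through a median of 8.77 to 9.27 in GFAP hippocampus tumors, against 8.43, 8.35, 8.27 and 8.44 in normal hippocampus. Only tumor 5 lay within the normal range. Cyp51 read 8.12, 8.34, 7.86 and 8.57 in GFAP cortex tumors, each below the normal cortex values of 8.70, 8.87, 8.62 and 8.72. In the SYN1 cortex tumors Cyp51 read 8.71, 9.13, 8.84 and 9.05, overlapping normal cortex.

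The first comparison set GFAP cortex tumors against normal cortex. Hmgcs1, Fdft1 and Idi1 fell, 3 of 7 genes, where 27.8% of all genes passed in either direction, 9% as higher and 18.8% as lower. The median difference was -0.50 over the 7 genes and -0.10 over all genes. Hmgcs1 was 2.39-fold lower (log2 difference -1.26 ± 0.22, SE, 4 against 4 arrays, limma adjusted p = 0.000256), and differed by -1.19 without the 4 arrays that stand apart (adjusted p = 0.000442). Fdft1 was 2.50-fold lower (-1.32 ± 0.33, limma adjusted p = 0.00399), and without the same arrays its difference was -0.92 at adjusted p = 0.00544. Idi1 differed by -0.79 ± 0.29 at limma adjusted p = 0.0413. That call ended without those 4 arrays (-0.65, adjusted p = 0.102), without any 1 of GFAP cortex tumors 1, 2 and 3 or any 1 normal cortex array, with quantile normalization (-0.73, adjusted p = 0.0634) and with the mean of its probe sets (-0.76, adjusted p = 0.0523). Cyp51 differed by -0.50 at adjusted p = 0.0758 although its groups did not overlap, a state that 37.1% of all genes shared in this comparison. Lss (-0.32), Fdps (-0.20) and Sqle (-0.15) did not pass. In tissue RNA, fewer cells of a type and less RNA per cell cannot be told apart. Oligodendrocyte markers fell in 10 of 11 genes in these tumors and in 4 of 11 without the 4 arrays. The mean of that list, each gene centred on its own mean, ran from -2.45 to 0.37 in GFAP cortex tumors and from 0.87 to 1.20 in normal cortex, and no marker reads 0 on this scale. Astrocyte markers fell in 2 of 10 genes, and in 0 without the 4 arrays, with a centred mean from -2.51 to 0.53 in GFAP cortex tumors and from 0.29 to 0.47 in normal cortex. The part of either list in the lower Hmgcs1 and Fdft1 was not tested.

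**Figure D2:**
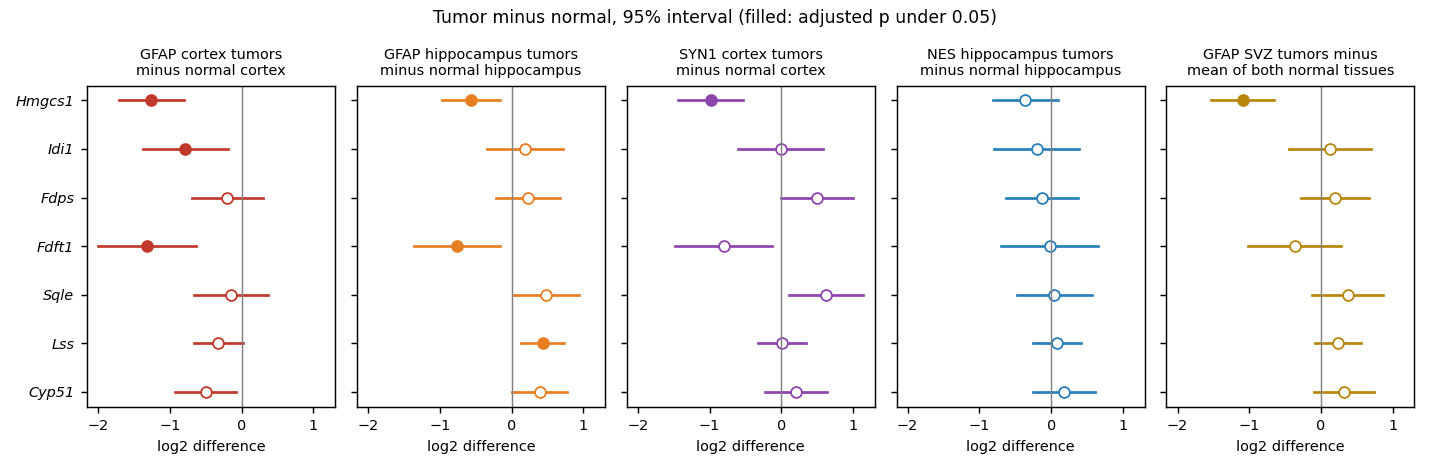
Log2 difference (x axis, 95% interval) of each gene (y axis) between each tumor group and normal tissue; filled points have limma adjusted p under 0.05. Hmgcs1 is to the left of 0 in all 5 panels and filled in 4, while Sqle, Lss and Cyp51 lie to the right in GFAP hippocampus and SVZ tumors.

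In GFAP hippocampus tumors against normal hippocampus, Hmgcs1 and Fdft1 fell and Lss rose, 3 of 7 genes, where 41.4% of all genes passed, 16.1% as higher and 25.2% as lower. The median difference was 0.23 over the 7 genes and -0.08 over all genes. Lss was 1.35-fold higher (0.43 ± 0.14, SE, 7 against 4 arrays, limma adjusted p = 0.0185). Hmgcs1 was 1.48-fold lower (-0.57 ± 0.20, limma adjusted p = 0.0222). Fdft1 was 1.69-fold lower (-0.76 ± 0.29, limma adjusted p = 0.0384), and this rested on the arrays that stand apart: without them it differed by -0.36 at adjusted p = 0.177. Without the same arrays Hmgcs1 differed by -0.80 at adjusted p = 0.00268 and Lss by 0.44 at adjusted p = 0.0107, and Fdps (0.52, adjusted p = 0.0239) and Sqle (0.69, adjusted p = 0.0151) passed as higher, while their differences over all arrays were 0.23 and 0.48 at adjusted p of 0.417 and 0.0916. The call on Hmgcs1 ended with quantile normalization (-0.44, adjusted p = 0.172) and without GFAP hippocampus tumor 1 or normal hippocampus 1 or 4. The call on Lss ended without normal hippocampus 3 (0.40, adjusted p = 0.0574), and that on Fdft1 without GFAP hippocampus tumor 4, 5, 6 or 7 or any 1 normal hippocampus array. All 3 calls ended when only these groups were fitted (adjusted p of 0.0637 for Hmgcs1, 0.0524 for Fdft1 and 0.0553 for Lss).

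Oligodendrocyte markers fell in 5 of 11 genes in GFAP hippocampus tumors, and in 9 of 11 without the arrays that stand apart. The centred mean of the list ran from -1.04 to 0.97 in these tumors and from 0.90 to 1.26 in normal hippocampus. Astrocyte markers fell in 1 of 10 genes and rose in 1, and fell in 6 without those arrays, with a centred mean from -1.01 to 1.02 in these tumors and from 0.29 to 0.65 in normal hippocampus. The part of either list in the differences of the 7 genes was not tested.

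In SYN1 cortex tumors against normal cortex, Hmgcs1 alone of the 7 genes passed the test, where 38.7% of all genes did, 18.2% as higher and 20.5% as lower. It was 1.98-fold lower (-0.98 ± 0.22, SE, 4 against 4 arrays, limma adjusted p = 0.000803). The groups did not overlap in 3 further genes that did not pass: Fdft1 at -0.80 (limma adjusted p = 0.0561), Sqle at 0.62 (adjusted p = 0.0545) and Fdps at 0.49 (adjusted p = 0.116). Groups did not overlap for 49% of all genes in this comparison. Without the 4 arrays that stand apart, none of which is in these groups, the pooled spread was smaller and the 3 genes passed at unchanged differences (adjusted p of 0.00393, 0.0278 and 0.0316). Cyp51 (0.20), Lss (0.01) and Idi1 (-0.01) overlapped normal cortex. All 11 oligodendrocyte markers fell, and their centred mean ran from -1.92 to -0.64 in SYN1 tumors and from 0.87 to 1.20 in normal cortex. Astrocyte markers fell in 5 of 10 genes, and their centred mean ran from -1.30 to -0.30 in SYN1 tumors and from 0.29 to 0.47 in normal cortex. The part of either list in these results was not tested.

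In NES hippocampus tumors against normal hippocampus, none of the 7 genes passed the limma test, and 0 had an unadjusted p under 0.05; 8.56% of all genes passed, 5.69% as higher and 2.86% as lower. The differences ran from -0.36 for Hmgcs1 (adjusted p = 0.363, 95% interval -0.82 to 0.10) to 0.17 for Cyp51. Leaving out 1 NES tumor at a time, Hmgcs1 ran from -0.50 without tumor 3 to -0.14 without tumor 1, and did not pass. With limma's array weights, which give less weight to scattered arrays, Hmgcs1 passed at -0.33 (adjusted p = 0.0407). No oligodendrocyte, astrocyte or neuron marker passed in this comparison.

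The SVZ tumors had no normal tissue of their region and were set against the mean of normal cortex and normal hippocampus. Hmgcs1 was 2.13-fold lower (-1.09 ± 0.21, SE, 3 against 8 arrays, limma adjusted p = 0.000193) and the other 6 genes did not pass, beside 37.6% of all genes that did, 16.2% as higher and 21.4% as lower. Sqle (0.37), Cyp51 (0.32), Lss (0.24), Fdps (0.19) and Idi1 (0.12) had positive differences and Fdft1 a negative one (-0.36). Without SVZ tumor 3, the lowest of the 3 for all 7 genes, Sqle rose by 0.71 (adjusted p = 0.036) and Cyp51 by 0.61 (adjusted p = 0.0245). Leaving out the lowest array could only raise these differences. Over all SVZ tumors their limma adjusted p were 0.263 and 0.236. Without that array Hmgcs1 stayed lower (-1.01, adjusted p = 0.00258), Fdft1 differed by 0.01, so its negative difference rested on that array, and Idi1 (0.65), Fdps (0.51) and Lss (0.40) did not pass. Oligodendrocyte markers fell in 10 of 11 genes in SVZ tumors and astrocyte markers in 6 of 10. The centred mean of the first list ran from -1.71 to -0.54 in SVZ tumors, against 0.87 to 1.26 over both normal tissues, and that of the astrocyte list from -1.25 to -0.04, against 0.29 to 0.65. Their part in the lower Hmgcs1 was not tested. The 5 comparisons share their normal arrays in part, so the repeated sign of Hmgcs1 is not 5 separate observations.

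Tumor groups were also compared with each other. SYN1 cortex tumors had positive differences from GFAP cortex tumors for all 7 genes, from 0.27 for Hmgcs1 to 0.78 for Idi1, and none passed the limma test, where 0.176% of all genes did; 4 of the 7 had an unadjusted p under 0.05. Without GFAP cortex tumor 1 and the other 3 arrays that stand apart, Sqle (0.77, adjusted p = 0.0441) and Cyp51 (0.67, adjusted p = 0.0449) passed, and Fdft1 differed by 0.12, against 0.52 over all arrays. NES hippocampus tumors differed from GFAP hippocampus tumors by -0.44 for Sqle to 0.74 for Fdft1, with none past the limma test beside 8.21% of all genes, and 2 at an unadjusted p under 0.05. Without the 4 arrays, Fdps (-0.64, adjusted p = 0.0205) and Sqle (-0.65, adjusted p = 0.0466) passed as lower in NES tumors, and Fdft1 differed by 0.34 and Hmgcs1 by 0.44, against 0.74 and 0.21 over all arrays.

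Within GFAP tumors, the hippocampal ones had positive differences from the cortical ones for all 7 genes, from 0.28 for Fdft1 to 0.85 for Idi1, with a median of 0.53 over the 7 genes and 0.00 over all genes. Lss alone passed (0.53 ± 0.14, limma adjusted p = 0.0457), beside 2.68% of all genes, and this call ended in 21 of 30 fits that left out a single array and without the 4 arrays that stand apart (0.45, adjusted p = 0.053). Without those arrays Fdps passed (0.67, adjusted p = 0.0381), against 0.52 at adjusted p = 0.193 over all arrays, and Hmgcs1 differed by 0.10, against 0.40 over all arrays. Cyp51 (0.63, adjusted p = 0.0619) and Idi1 (0.85, adjusted p = 0.0656) lay next to the threshold. Deviations of samples with the same number correlated at 0.28 to 0.31 in these groups, but only 2 of 4 matched their own number best. The labels state no pairing. With the number as a block, which leaves GFAP hippocampus tumors 5 to 7 without weight, Fdps (0.81, adjusted p = 0.0204), Sqle (0.76, adjusted p = 0.0447) and Lss (0.54, adjusted p = 0.0294) passed. In SVZ tumors against GFAP cortex tumors and against GFAP hippocampus tumors, none of the 7 genes passed the limma test, where 0.00502% and 0.316% of all genes did, and 4 and 0 genes had an unadjusted p under 0.05. None passed in either comparison without the 4 arrays that stand apart, and Fdft1 then differed by 0.41 from GFAP cortex tumors and by 0.13 from GFAP hippocampus tumors, against 0.82 and 0.54 over all arrays.

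Normal hippocampus differed from normal cortex by -0.29 for Hmgcs1 to 0.09 for Fdps, with none of the 7 past the limma test beside 1.29% of all genes, and 0 at an unadjusted p under 0.05. Whether the GFAP tumor difference itself depended on the region was tested as an interaction, the hippocampal difference minus the cortical one. It was positive for all 7 genes, from 0.43 for Fdps to 0.98 for Idi1, and none passed the limma test, beside 0.838% of all genes; 4 had an unadjusted p under 0.05. The lowest adjusted p was that of Lss (0.76, adjusted p = 0.113). Without the 4 arrays that stand apart the interaction ran from 0.39 for Hmgcs1 to 0.85 for Cyp51, none passed, and Lss was again lowest in adjusted p (0.68, adjusted p = 0.0707).

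Across the 30 arrays the 7 genes formed pairs of high and low likeness. Pearson correlations over the 21 pairs ran from -0.17 to 0.89 with a median of 0.52. Idi1 with Cyp51 (0.89), Lss with Cyp51 (0.86) and Fdps with Sqle (0.83) had the highest values, and Idi1 with Lss was at 0.76. Hmgcs1 was at -0.13 with Fdps, -0.17 with Sqle and 0.17 with Lss, and at 0.23 with Cyp51, 0.40 with Idi1 and 0.52 with Fdft1. With group means removed the pairs ran from -0.09 to 0.91, and Idi1 with Cyp51 was at 0.91. Hmgcs1 was then at 0.51 with Lss, 0.54 with Idi1 and 0.59 with Cyp51, and at -0.09 with Fdps, 0.06 with Sqle and 0.11 with Fdft1. All of these values share their arrays and the scaling of those arrays, and they are given as a description.

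**Figure D3:**
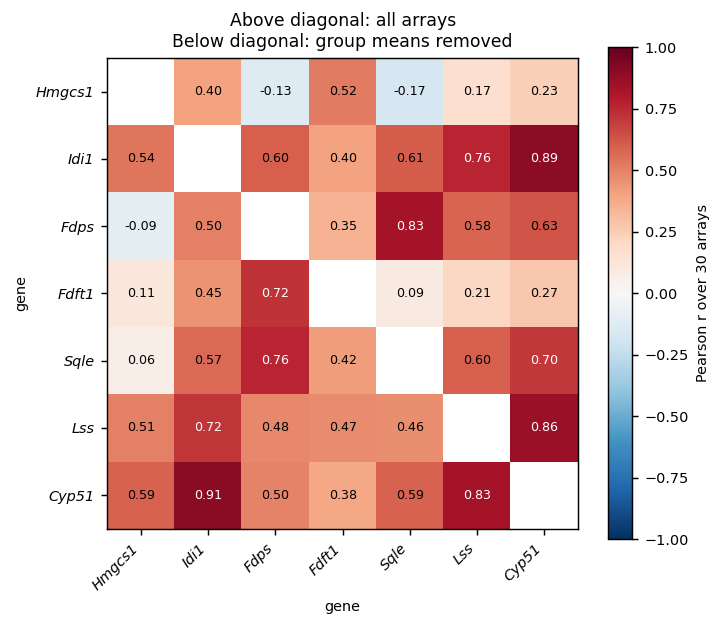
Pearson correlation (colour and number) between each pair of the 7 genes (both axes) over 30 arrays, above the diagonal as measured and below it with group means removed. Idi1, Lss and Cyp51 form a block from 0.76 to 0.89 above the diagonal, and the row of Hmgcs1 holds both negative values.

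Genes outside the 7 were ranked by their correlation with the mean of the 7, each centred on its own mean. The most alike of 19931 over the 30 arrays were Sc5d (0.86), Msmo1 (0.80), Fasn (0.77), Nsdhl (0.75) and Cmas (0.74). Sc5d, Msmo1 and Nsdhl encode later enzymes of cholesterol synthesis, Fasn is fatty acid synthase, and Cmas activates sialic acid. With group means removed the most alike were Tnfaip6 (0.79), Nsdhl (0.79), Fpgt (0.79), Prrg1 (0.78) and Sc5d (0.78). Of the 50 most alike genes, 4 were other cholesterol synthesis enzymes as measured and 3 with group means removed. The 19931 ranked genes held 12 such enzymes.

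The other enzymes of cholesterol synthesis were read from a list of 15 genes, of which 12 were measured by a probe set of their own; the other 3 were not analysed here. In GFAP cortex tumors 5 of the 12 fell and 1 rose, with a median difference of -0.49; over all genes the median lay between -0.10 and 0.00 in the 5 tumor groups. Sc5d (-0.73, limma adjusted p = 0.00155) and Mvd, which makes isopentenyl diphosphate (-0.48, limma adjusted p = 0.0047), were among the 5 that fell. Lbr, a sterol reductase that also anchors chromatin at the nuclear envelope, was the 1 that rose (0.56, limma adjusted p = 0.0493). In GFAP hippocampus tumors 1 rose and 1 fell, in SYN1 cortex tumors 2 rose and none fell, in NES hippocampus tumors none passed, and in SVZ tumors 2 rose and none fell. Lbr rose in GFAP hippocampus (1.18), SYN1 cortex (0.93) and SVZ tumors (0.66), and Hsd17b7, a sterol ketoreductase, rose in SYN1 cortex (0.87) and SVZ tumors (1.20). Of all genes 27.8%, 41.4%, 38.7%, 8.56% and 37.6% passed in GFAP cortex, GFAP hippocampus, SYN1 cortex, NES hippocampus and SVZ tumors. Over the 30 arrays the centred mean of this list correlated at 0.92 with that of the 7 genes.

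**Figure D4:**
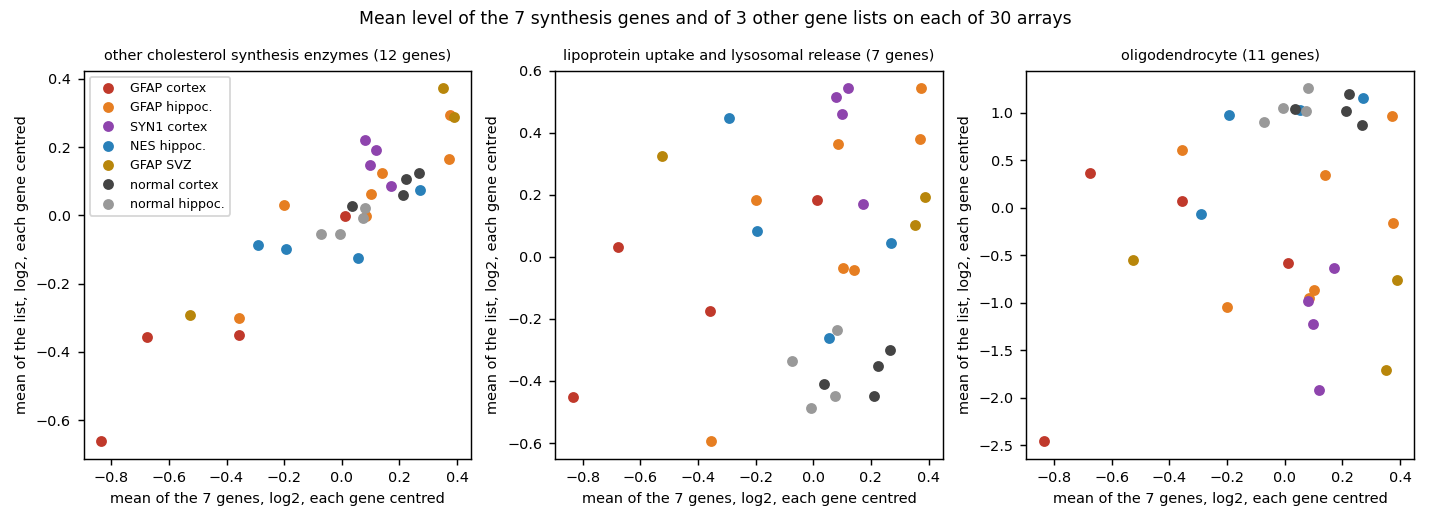
Centred mean log2 signal of the 7 synthesis genes (x axis) against that of 12 other synthesis enzymes, 7 uptake and lysosomal genes and 11 oligodendrocyte markers (y axes), 1 point per array, coloured by group. The points of the synthesis panel follow a line (r = 0.92), and those of the uptake (0.20) and oligodendrocyte (0.19) panels do not. Marker lists not shown ran from -0.36 (mural cell and fibroblast) to 0.30 (oligodendrocyte precursor). The mean of the 7 joins genes with unlike profiles, such as Hmgcs1 and Sqle (-0.17). It does not describe Hmgcs1 or Fdft1 alone, and the part of any cell type was not tested.

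Of 10 genes that sense sterol or control SREBP, the factor named above, 8 were measured. In GFAP cortex tumors 4 fell and 1 rose, with a median difference of -0.41. Srebf2 fell there (-0.98 ± 0.16, limma adjusted p = 0.000113) and in SYN1 cortex tumors (-0.72, limma adjusted p = 0.000652). It differed by -0.31 in GFAP hippocampus, -0.29 in NES hippocampus and -0.36 in SVZ tumors, which did not pass. Insig1, itself a target of SREBP, fell in GFAP cortex (-1.05 ± 0.19, limma adjusted p = 0.000288). It also fell in SYN1 cortex tumors (-0.53, limma adjusted p = 0.0268) and differed by 0.05 in GFAP hippocampus tumors. Scap fell in 4 of 5 tumor groups, from -0.55 in GFAP cortex to -0.34 in SVZ tumors, and was at -0.23 in NES hippocampus tumors without passing. Srebf1, the relative of Srebf2 that drives mainly fatty acid synthesis, rose in all 5 tumor groups (0.48, 0.48, 0.44, 0.57 and 0.61 in GFAP cortex, GFAP hippocampus, SYN1 cortex, NES hippocampus and SVZ tumors). Stard4, a carrier of sterol between membranes, fell by 0.51 in GFAP cortex tumors, with limma adjusted p = 0.0103, and rose by 0.55 in GFAP hippocampus tumors, with limma adjusted p = 0.00139. Mbtps1, the protease that first cuts SREBP, rose in GFAP hippocampus (0.54) and SYN1 cortex tumors (0.73). Of all genes 27.8% passed in GFAP cortex tumors, and 41.4%, 38.7%, 8.56% and 37.6% in the groups that follow. In the other groups this list counted 3 higher and 1 lower in GFAP hippocampus, 2 higher and 3 lower in SYN1 cortex, 1 higher and none lower in NES hippocampus, and 1 higher and 1 lower in SVZ tumors.

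Uptake of lipoproteins and release of their cholesterol in the lysosome gave 7 measured genes of 9 listed; the other 2 were not analysed here. They counted 1 higher and 1 lower in GFAP cortex, 5 higher and 1 lower in GFAP hippocampus, 5 higher and none lower in SYN1 cortex, 2 higher and none lower in NES hippocampus, and 3 higher and 1 lower in SVZ tumors. Of all genes 27.8%, 41.4%, 38.7%, 8.56% and 37.6% passed in the same order of groups. The median difference of the list ran from 0.37 in NES hippocampus to 0.83 in SYN1 cortex tumors. Npc2, which hands cholesterol out of the lysosome, rose in all 5 groups, by 1.14 in GFAP cortex tumors (limma adjusted p = 0.00583) to 1.71 in SYN1 cortex tumors (limma adjusted p = 5.81e-05). Lipa, the lysosomal lipase that frees cholesterol from its esters, rose in 4 groups, from 0.84 in NES hippocampus to 1.39 in SYN1 cortex tumors, and differed by 0.58 in GFAP cortex tumors (limma adjusted p = 0.0979). Lrp8, a receptor for apolipoprotein E on neurons, fell in GFAP cortex (-0.67), GFAP hippocampus (-0.68) and SVZ tumors (-0.57). Microglia and macrophage markers rose in 8 or 9 of 12 genes in each tumor group, where 5.69% to 18.2% of all genes rose. Their centred mean ran from -0.61 to 1.07 over the 5 tumor groups and from -1.26 to -0.93 over the normal tissues. Their part in the higher Npc2 and Lipa was not tested.

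**Figure D5:**
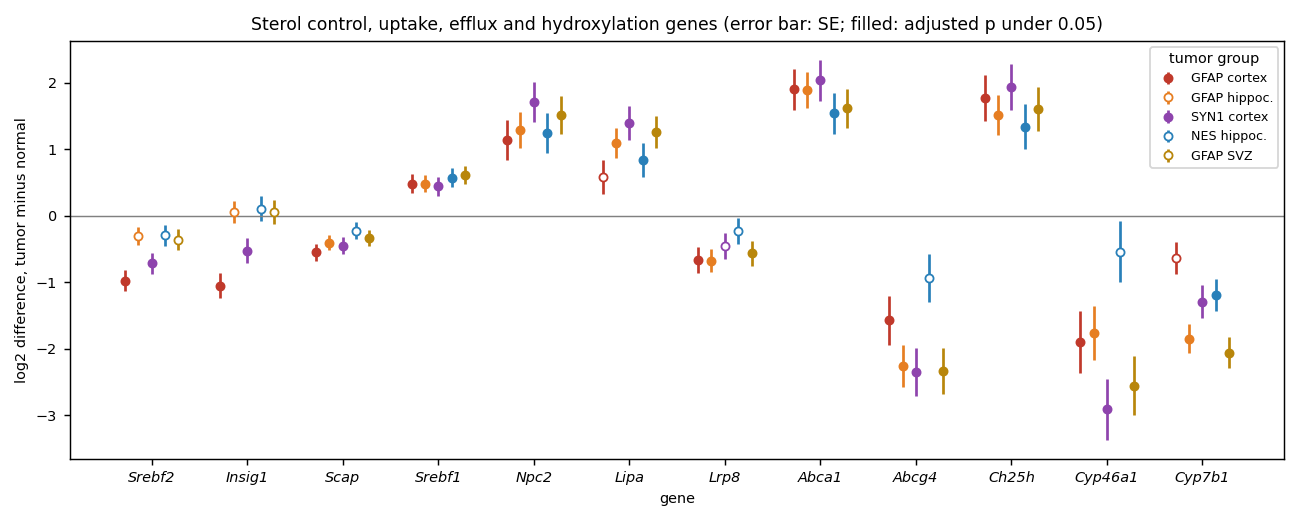
Log2 difference (y axis, error bar SE) between each of 5 tumor groups (colours) and normal tissue for 12 genes of sterol control, uptake, efflux and hydroxylation (x axis), filled where limma adjusted p is under 0.05. Npc2, Abca1, Ch25h and Srebf1 lie above 0 in all 5 groups, and Scap, Abcg4, Cyp46a1 and Cyp7b1 lie below it.

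Efflux genes and carriers moved in both directions, with 7 of 8 listed genes measured. Abca1, which loads cholesterol onto lipoprotein particles, rose in all 5 tumor groups, from 1.54 in NES hippocampus (limma adjusted p = 0.002) to 2.04 in SYN1 cortex tumors (limma adjusted p = 1.08e-05). Abcg4, a sterol exporter of neurons and glia, fell in 4 groups, from -1.58 in GFAP cortex to -2.35 in SYN1 cortex tumors, and differed by -0.94 in NES hippocampus tumors (adjusted p = 0.114). Lcat, which esterifies cholesterol on lipoproteins, fell in GFAP hippocampus (-1.27), SYN1 cortex (-1.45) and SVZ tumors (-1.30). Pltp, a phospholipid transfer protein, fell in SYN1 cortex tumors (-0.66). Apoe, the main lipoprotein carrier of the brain, rose in GFAP hippocampus tumors (0.59, limma adjusted p = 0.0473), a call that ended without the 4 arrays that stand apart (0.43, adjusted p = 0.13). The counts of this list stand beside 27.8%, 41.4%, 38.7%, 8.56% and 37.6% of all genes in the same order of groups. The counts were 1 higher and 1 lower in GFAP cortex, 2 and 2 in GFAP hippocampus, 1 and 3 in SYN1 cortex, 1 and 0 in NES hippocampus, and 1 and 3 in SVZ tumors, with medians from -0.31 in GFAP cortex to 0.18 in NES hippocampus tumors.

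Of 7 genes of esterification and hydroxylation, 5 were measured; Soat1 and Soat2 were not analysed here. Ch25h, which makes 25-hydroxycholesterol, rose in all 5 tumor groups, from 1.34 in NES hippocampus (limma adjusted p = 0.0132) to 1.93 in SYN1 cortex tumors (limma adjusted p = 6.54e-05). Cyp46a1, the neuronal enzyme that clears brain cholesterol as an oxysterol, fell in GFAP cortex (-1.90), GFAP hippocampus (-1.76), SYN1 cortex (-2.91) and SVZ tumors (-2.56), and differed by -0.54 in NES hippocampus tumors (adjusted p = 0.527). Neuron markers fell in the same 4 groups, as counted above, and their part in the lower Cyp46a1 was not tested. Cyp7b1, which hydroxylates oxysterols further, fell in all groups but GFAP cortex tumors (-0.64, adjusted p = 0.0518), down to -2.07 in SVZ tumors. Its normal tissues differed: normal hippocampus was 1.07 above normal cortex (limma adjusted p = 0.0183), and the SVZ value is set against the mean of both. GFAP hippocampus tumors differed from GFAP cortex tumors by -0.15 (limma adjusted p = 0.783). Cyp27a1, a mitochondrial sterol hydroxylase, rose in NES hippocampus tumors (0.67, limma adjusted p = 0.0302). The counts of this list stand beside 27.8%, 41.4%, 38.7%, 8.56% and 37.6% of all genes in the same order of groups. The counts were 1 higher and 1 lower in GFAP cortex, 1 and 3 in GFAP hippocampus, 1 and 3 in SYN1 cortex, 2 and 1 in NES hippocampus, and 1 and 2 in SVZ tumors, with medians from -1.11 in SYN1 cortex to -0.39 in SVZ tumors.

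Fatty acid synthesis, which draws on the same acetyl-CoA, had all 10 listed genes measured. None rose and 4 fell in GFAP cortex tumors, 1 rose and 3 fell in GFAP hippocampus, none rose and 4 fell in SYN1 cortex, none passed in NES hippocampus, and 1 rose and 1 fell in SVZ tumors, with medians from -0.90 in GFAP cortex to -0.02 in NES hippocampus tumors. Of all genes 27.8%, 41.4%, 38.7%, 8.56% and 37.6% passed in the same order of groups. Acss2, which makes acetyl-CoA from acetate, fell in 4 groups, from -1.28 in GFAP hippocampus to -1.59 in SYN1 cortex tumors. Elovl6, a fatty acid elongase, fell in GFAP cortex (-1.03), GFAP hippocampus (-0.98) and SYN1 cortex tumors (-0.71), and Fads1, a desaturase, fell in GFAP cortex (-1.09) and SYN1 cortex tumors (-1.38). Acly, which makes cytosolic acetyl-CoA from citrate, rose in GFAP hippocampus (1.06, limma adjusted p = 6.13e-06) and SVZ tumors (0.76, limma adjusted p = 0.000532). Without the 4 arrays that stand apart, Fads1 differed by -0.69 in GFAP cortex tumors (adjusted p = 0.0789), and this list counted 0 higher and 3 lower in GFAP cortex and 3 higher and 2 lower in GFAP hippocampus tumors. Without the same arrays the uptake list counted 3 higher and 1 lower in GFAP cortex tumors, the other synthesis enzymes 1 higher and 6 lower in GFAP cortex and 1 higher and 0 lower in GFAP hippocampus tumors, and the sterol control list 2 higher and 4 lower in GFAP cortex tumors. Over the 30 arrays the centred mean of this list correlated at 0.65 with that of the 7 genes, and that of the sterol control list at 0.78.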

How the data were processed

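Per the labels, total RNA was taken up in Trizol and labelled for the arrays with an Ambion WT kit. Affymetrix Power Tools, MAS5 and RMA are named, without versions, in the submitters' processing notes. The table deposited holds a log2 signal for every probe set on every array, and how the arrays were scaled to each other is not given in the sources used here. Of 35556 probe sets, 21789 named 1 symbol, 1621 several and 12146 none; 21698 of the first matched RefSeq GRCm38.p6. The probe set with the highest mean stood for each gene (19938 genes; 999 had more than 1). The tables give no probe positions, so signal from near-identical copies of a gene was not separated. Values were used as deposited and no gene was removed.

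The test was limma (version 3.58.1, under R 4.3.3) on 30 arrays, with a mean for each of 7 groups, 12 contrasts, Benjamini-Hochberg adjustment over all genes and a threshold of 0.05; the steps were tested on simulated data. Groups of 3 to 7 arrays limit the precision. The alternatives were other scalings, a filter on the lowest 30% of genes, averaging the probe sets of a gene, trended and robust spread, only the groups compared, array weights, leaving out the 4 arrays that stand apart, a replicate block and leaving out each array.

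Replicate numbers came from the labels. Deviations of same-numbered samples correlated at 0.28 to 0.31 in all 4 pairs of GFAP hippocampus and GFAP cortex tumors, and 2 of the 4 matched their own number best. The labels state no pairing, so these numbers were used only in the alternative with a replicate block. In each other comparison at least 1 pair was at or under 0.1. The 7 genes, the lists and the markers were chosen with earlier results of these data known. From each list the text names the 2 called genes with the lowest adjusted p in each direction in each of 4 comparisons of tumors with normal tissue of their region, those called in 1 direction in all 4, and Srebf2 and Insig1.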

Additional observations from a re-analysis of the deposited data

Results flagged for a closer look

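Fdft1 in GFAP cortex tumor 1 was far from the other 3 arrays of its group: 9.03, against 10.5 to 10.8, a gap of 0.834 of the range of the group where 0.829 marks an outlier. It was the 1 such value in 48 groups tested over the 7 genes and their mean, which is not independent of them. Chance marks about 1 group in 20. The same array stands apart over all genes, and Fdft1 fell in these tumors with and without it, as given above.

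Limma's interaction term, the hippocampal minus the cortical difference between GFAP tumors and normal tissue, passed for 3 of 26 named genes of the lists. It passed for 0.838% of all genes. Apart from Srebf2 and Insig1, the 26 were named for their calls in comparisons of tumors with normal tissue, GFAP tumors included. The interaction is built from those GFAP comparisons, so the genes were chosen on values that it uses. The count of 3 of 26 can therefore not be weighed against the share of all genes. The interaction was 1.10 for Insig1 (adjusted p = 0.0266), 1.06 for Stard4 (adjusted p = 0.00433) and 1.01 for Acly (adjusted p = 0.0241). Without the 4 arrays that stand apart the values were 0.97 for Insig1 (adjusted p = 0.0448), 1.00 for Stard4 (adjusted p = 0.00486) and 0.91 for Acly (adjusted p = 0.00617). None of the 7 synthesis genes passed this test.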

How the results depend on the processing

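Hmgcs1 in GFAP cortex, SYN1 cortex and SVZ tumors and Fdft1 in GFAP cortex tumors passed the test under all 39 alternatives, and in GFAP cortex tumors Hmgcs1 ran from -1.35 to -0.99. Of 84 differences of the 7 genes, 9 were called, none of the 9 turned sign under any alternative, and 18 uncalled ones did under at least 1. Leaving out 1 array at a time, the number of the 7 genes called ran from 2 to 4 in GFAP cortex, 1 to 4 in GFAP hippocampus, 1 to 3 in SYN1 cortex, 0 to 0 in NES hippocampus and 1 to 3 in SVZ tumors against normal tissue, 0 to 4 for GFAP hippocampus against GFAP cortex tumors, and 0 to 1 for NES against GFAP hippocampus tumors, SVZ against GFAP cortex tumors and the interaction. Array weights called 10610, 7723 and 11488 of all 19938 genes in GFAP cortex, NES hippocampus and SVZ tumors, and the next paragraph gives further counts over all genes. The counts of the 7 genes moved by over 1.5 times as follows, and the cause was not tested. With array weights they were 5 in GFAP cortex, 6 in GFAP hippocampus, 4 in SYN1 cortex, 1 in NES hippocampus and 6 in SVZ tumors, 3 for SYN1 against GFAP, NES against GFAP, GFAP hippocampus against GFAP cortex and the interaction, and 6 for SVZ against GFAP cortex tumors. With only the groups compared they were 0 in GFAP hippocampus tumors and for GFAP hippocampus against GFAP cortex, 4 in SYN1 cortex tumors and 1 for normal hippocampus against normal cortex. With arrays centred they were 2 in SYN1 cortex tumors, 1 for NES against GFAP, 3 for GFAP hippocampus against GFAP cortex and 1 for the interaction. With quantile normalization they were 4 in SYN1 cortex tumors and 2 for NES against GFAP. The filter on low genes gave 3 in SYN1 cortex tumors and 0 for GFAP hippocampus against GFAP cortex, and trended spread gave 0 for the last. Without the 4 arrays that stand apart they were 4 in SYN1 cortex tumors and 2 for both SYN1 and NES against GFAP. With the replicate block they were 3 in SYN1 cortex tumors, 1 for SYN1 and for NES against GFAP, and 3 for GFAP hippocampus against GFAP cortex; where the numbers do not pair samples this block is only a number.

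Counts over all genes moved likewise. Array weights gave 10610 genes in GFAP cortex, 7723 in NES hippocampus and 11488 in SVZ tumors, and 2489 (SYN1 against GFAP), 4715 (NES against GFAP), 1075 (GFAP hippocampus against cortex), 5173 (SVZ against GFAP cortex), 528 (SVZ against GFAP hippocampus), 2645 (normal tissues) and 1696 (interaction). Only the groups compared gave, in NES hippocampus tumors and then in the order of these pairs, 3088, 4, 0, 0, 0, 0 and 2768. Leaving out the 4 arrays gave 3875, 2655, 4218, 2090, 2361, 134, 494 and 537, and the replicate block 2885, 950, 2744, 1954, 123, 31, 389 and 542, both with the interaction last. Centring gave 67 for SYN1 against GFAP, 1476 for GFAP hippocampus against cortex, 4 for SVZ against GFAP cortex and 303 for the interaction. Quantile normalization gave 269 for GFAP hippocampus against cortex, 27 for SVZ against GFAP cortex and 135 for SVZ against GFAP hippocampus, and trended spread 13 for SYN1 against GFAP and 2 for SVZ against GFAP cortex. Without these alternatives the counts were 5536, 1706, 7504, 35, 1637, 534, 1, 63, 257 and 167. Leaving out 1 array at a time, they ran from 4269 to 6120 in GFAP cortex, 6880 to 8992 in GFAP hippocampus, 6878 to 8207 in SYN1 cortex, 702 to 2207 in NES hippocampus and 6072 to 8015 in SVZ tumors, and for the later pairs 1 to 1132, 6 to 3398, 205 to 1421, 1 to 539, 3 to 323, 169 to 316 and 108 to 270. Centring moved the median of all genes from 0.00 to 0.12 for GFAP hippocampus against cortex, from 0.06 to -0.06 for NES against GFAP, and from 0.03 to 0.15 for the interaction. No called difference of the 7 genes turned sign with centring, but centring changed how many of the 7 were called, as given above. The share of calls that were higher went to 56.3% from 66.5% in NES hippocampus tumors, 43.0% from 74.5% for NES against GFAP, 96.1% from 83.5% for GFAP hippocampus against cortex, 27.8% from 47.6% for SVZ against GFAP hippocampus and 71.0% from 40.7% for the interaction with centring, and to 46.5% for NES against GFAP, 69.2% from 85.7% for SYN1 against GFAP and 59.3% from 100% for SVZ against GFAP cortex with quantile normalization. Of 77 calls on the 26 named list genes in the 5 tumor comparisons, 53 held under all 39 alternatives. Signal near background compresses differences of dim genes.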
